A study of Mus musculus with 11 samples.

Results

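Transcripts of 10 dual-specificity phosphatases were followed in precursor exhausted CD8+ T cells of mouse tumors, the self-renewing population that gives rise to more differentiated exhausted cells. The genes are Dusp1, Dusp2, Dusp4, Dusp5, Dusp6, Dusp7, Dusp10, Dusp11, Dusp12 and Dusp22, that is 10 of the 32469 gene symbols with deposited counts. They were picked by name, after Dusp2 had been seen to stand apart in a single library, so the Dusp2 level there is given as a description. All 10 had reads, and 7 passed a filter on low counts that left 6949 genes for testing, whereas Dusp7, Dusp12 and Dusp22 stayed below it.

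Both groups were wild-type C57BL/6 mice, female and 8 weeks old according to the methods of the study, carrying Lewis lung carcinoma (LLC) tumors grown from a lung carcinoma cell line that had been injected under the skin of both flanks. The untreated group had 5 mice. A group of 6 mice (aLAG3 in the labels, anti-LAG-3 here) received 200 µg of the C9B7W antibody against LAG-3, an inhibitory receptor of exhausted T cells, on day 14 and again on day 16. Untreated mice received no antibody that the labels name. The deposited description has tumors excised on days 14 and 21, while the methods place the last excision of the LAG-3 experiment on day 18. The labels do not tell which tumor gave each library. The study itself reports that the sequenced cells came from tumors taken on day 18. Cells were sorted as CD8+PD-1+Ly108+TIM-3-CD62L-, and each library holds the cells of a single mouse. Libraries are numbered 1 to 5 in the untreated group and 6 to 11 in the anti-LAG-3 group, as in the labels.

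Dual-specificity phosphatases remove phosphate from both tyrosine and serine or threonine residues. The MAP kinase phosphatases among them switch off ERK, JNK and p38, the kinases that carry signals from the T cell receptor and from stress, and several are themselves transcribed in response to those kinases, so that they close a negative feedback loop. Dusp1, Dusp2, Dusp4 and Dusp5 encode inducible nuclear enzymes, Dusp6 and Dusp7 cytoplasmic enzymes that act on ERK, and Dusp10 an enzyme that prefers JNK and p38. Dusp11, Dusp12 and Dusp22 belong to the atypical phosphatases, which lack the MAP kinase binding domain, so the name MAP kinase phosphatase covers 7 of the 10 genes in the strict sense.

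The 250 bases upstream of the RefSeq transcription start (build GRCm38.p6, 5′ to 3′ along the gene) are shown for Dusp1 and Dusp6, which varied together between mice, and for Dusp5 and Dusp2, which each stood apart in a single library. Capitals mark the matches, on either strand, to a cyclic AMP response element (CRE, TGACGTCA), its core TGACG, an E-box (CACGTG) or a CArG box, the element bound by serum response factor. The cores in a full CRE overlap it, and GC boxes (GGGCGG) were counted but left in lower case.
Dusp1, chr17:26508473-26508722, strand -: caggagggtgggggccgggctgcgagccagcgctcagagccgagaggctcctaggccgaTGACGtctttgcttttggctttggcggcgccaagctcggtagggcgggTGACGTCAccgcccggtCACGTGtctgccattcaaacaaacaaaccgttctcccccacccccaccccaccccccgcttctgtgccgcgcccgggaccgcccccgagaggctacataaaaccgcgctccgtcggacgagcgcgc
Dusp6, chr10:99262981-99263230, strand +: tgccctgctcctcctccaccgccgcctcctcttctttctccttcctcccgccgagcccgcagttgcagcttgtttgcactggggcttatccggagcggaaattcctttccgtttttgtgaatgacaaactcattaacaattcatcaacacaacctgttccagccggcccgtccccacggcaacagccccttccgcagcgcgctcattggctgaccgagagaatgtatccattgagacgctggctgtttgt
Dusp5, chr19:53528895-53529144, strand +: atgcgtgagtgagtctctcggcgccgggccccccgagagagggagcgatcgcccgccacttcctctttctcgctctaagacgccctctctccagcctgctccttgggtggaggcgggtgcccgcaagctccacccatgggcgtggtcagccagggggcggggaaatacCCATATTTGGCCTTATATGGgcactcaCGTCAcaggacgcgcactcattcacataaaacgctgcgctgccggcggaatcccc
Dusp2, chr2:127335909-127336158, strand +: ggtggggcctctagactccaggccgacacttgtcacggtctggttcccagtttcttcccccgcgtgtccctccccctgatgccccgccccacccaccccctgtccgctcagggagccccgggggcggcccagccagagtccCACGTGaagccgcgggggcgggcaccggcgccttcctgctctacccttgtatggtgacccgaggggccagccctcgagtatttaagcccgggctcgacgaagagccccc
A full CRE, found in 1.55% of 32851 mouse promoter windows of this length, lies upstream of Dusp1, next to an E-box (6.02% of windows). The Dusp5 window holds 2 adjoining CArG boxes, an element found in 1.47% of windows. The Dusp2 window holds an E-box and 3 GC boxes, and the Dusp6 window matched none of the 8 motifs searched. The other 4 were AP-1 (TGANTCA, 6.75% of windows), a TATA box (TATAAA, 12.4%), NF-kB (3.90%) and the GC box (32.7%), while the CRE core occurs in 17.8%. Of the 10 genes, 9 had a promoter entry. Dusp4 had none.

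Total counts ranged from 313524 to 1901374 reads per library, and reads were counted without molecular identifiers, so counting intervals and floors cover counting error only. Values are given in CPM, counts scaled to a common library size after TMM normalization, in which 3 counts correspond to between 1.65 CPM in the deepest library and 10.1 CPM in the shallowest. The sorted identity was visible in every library, with 1088 to 1301 CPM of Cd8a, 489 to 787 CPM of Pdcd1 and 75.5 to 121 CPM of Slamf6, the gene for Ly108. Havcr2, the gene for the excluded TIM-3, had 0 to 7 counts. Summed markers of B cells, NK cells and CD4 T cells each stayed at or below 10.1 CPM, those of tumor and stroma at or below 26.4 CPM, and those of 9 myeloid genes lay between 23.1 and 159 CPM. Depth followed the barcode of the first amplification primer given in the library titles. It was 566144 to 1901374 in the 6 libraries with barcode 9 (3 of each group), 313524 to 451465 in the 4 with barcode 8 (1 untreated, 3 anti-LAG-3) and 317449 in the untreated library with barcode 10.

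The comparison of the groups asked whether LAG-3 blockade changed the level of any of these phosphatases. No call was made. None of the 7 tested genes, and none of all 6949 (0%), had an adjusted p under 0.05 by the quasi-likelihood test of edgeR, adjusted over all genes by Benjamini and Hochberg, the smallest adjusted p being 0.999. Before adjustment, 259 genes (3.73%) had a p under 0.05, 0 of them among the 7. The likelihood ratio test of edgeR and DESeq2 also called 0 genes. The 2 groups overlapped for each of the 10 genes, against 33 of the 6949 (0.475%) without overlap. Of the 7 tested genes, 4 had a positive and 3 a negative log2 fold change (anti-LAG-3 over untreated), with a median of 0.04 beside 0.0045 over all genes. Changes in RNA per cell and changes in the share of cells that carry the RNA cannot be told apart in such libraries. Nothing in the labels says whether mice were processed together, so the p-values measure the spread between these libraries.

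**Figure D1:**
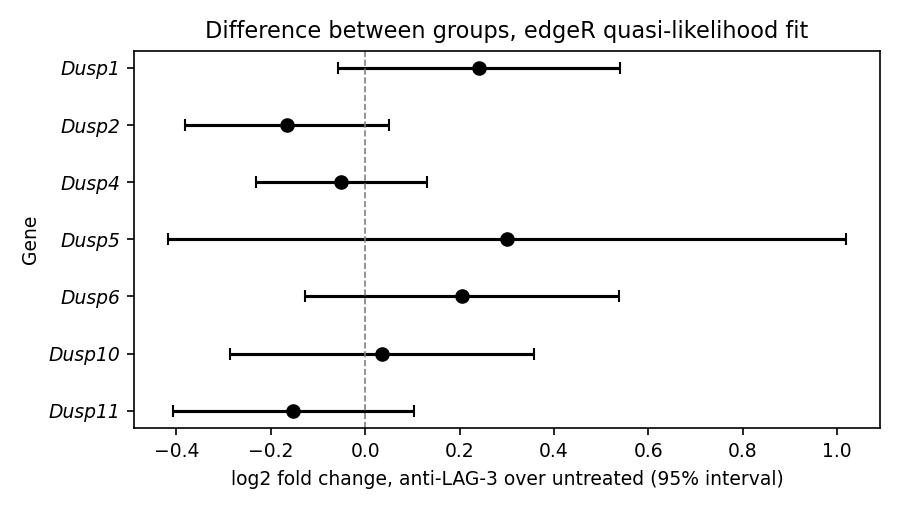
Log2 fold change of each tested phosphatase (points) with its 95% interval (bars) from edgeR's quasi-likelihood fit, anti-LAG-3 (n = 6) over untreated (n = 5), on the horizontal axis. All 7 intervals from this filtered fit include 0, and that of Dusp5 is the widest, from -0.42 to 1.02.

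Among the nuclear, inducible phosphatases, Dusp1 (GRCm38 chr17:26505590-26562128, minus strand, an annotated extent that runs past the RefSeq start used above) encodes the enzyme that inactivates p38, JNK and ERK after stress and mitogens. In untreated libraries 1 to 5 it measured 310.4, 329.6, 303, 189.5 and 325 CPM. In the anti-LAG-3 libraries the lowest value was 231 CPM (library 6), the median 352 CPM and the highest 446 CPM (library 9). Untreated library 4 was the low value and the anti-LAG-3 libraries reached higher, but 2 of these 6 libraries lay below 4 of the 5 untreated ones. The means were 291 ± 57.9 CPM (SD, n = 5) against 347 ± 89.5 CPM (SD, n = 6). The log2 fold change was 0.24 with a standard error of 0.15 and a 95% interval from -0.06 to 0.54 (edgeR quasi-likelihood, unadjusted p = 0.111, adjusted p = 0.999), so a rise beyond 1.45-fold or a fall below 0.96-fold lay outside the interval. Single libraries moved the value from 0.14 (without untreated library 4 or anti-LAG-3 library 9) to 0.35 (without anti-LAG-3 library 6).

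Dusp2 (chr2:127336159-127338376, plus strand) encodes PAC-1, named as a phosphatase of activated T cells. It measured 482, 725, 645, 658 and 589 CPM in untreated libraries 1 to 5. In anti-LAG-3 libraries 6 to 11 it measured 534, 497, 559, 487, 757 and 494 CPM. Anti-LAG-3 library 10, with 757 CPM (95% counting interval 662 to 863), was the highest of all 11 libraries, while the other 5 anti-LAG-3 libraries lay between 487 and 559 CPM. Of the 5 untreated libraries, 4 lay above those 5. The means were 620 ± 91.0 CPM (SD, n = 5) against 555 ± 103 CPM (SD, n = 6), and the fitted log2 fold change was -0.17 with a standard error of 0.11 and an interval from -0.38 to 0.05. Single libraries moved it from -0.11 (without untreated library 2) to -0.25 (without untreated library 1) and -0.26 (without anti-LAG-3 library 10), and the last value is a description, since the library was known to stand apart when the genes were picked.

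Library 10 also had the most RNA of myeloid markers, 159 CPM summed over 9 genes, whereas untreated library 2, with the next highest Dusp2 level, had the least, 23.1 CPM. The study's gating for tumor T cells, shown for mice of days 14 and 21, excluded cells stained for CD11b, B220, NK1.1 or TER119. The part of these markers in the Dusp2 level was not tested. A division of Dusp2 followed the number after ExT in the library titles, whose meaning the sources used here do not state. There are 8 such numbers, of which ExT18082 is shared by untreated libraries 4 and 5 and ExT18083 by untreated libraries 2 and 3 and anti-LAG-3 library 10, while each other number belongs to a single library. The 5 libraries with a shared number had 589 to 757 CPM of Dusp2 and the other 6 had 482 to 559 CPM, without overlap. Among all 6949 genes, 32 (0.46%) did not overlap between these sets of libraries in either direction and 12 (0.173%) were higher in the same direction as Dusp2. The high value of library 10 had entered the choice of the genes and the division was noticed in the values, so nothing is read from these shares. Without library 10 the 4 remaining libraries with a shared number, all untreated, had 589 to 725 CPM. It is also nearly that of treatment, with 4 untreated and 1 anti-LAG-3 library against 1 untreated and 5 anti-LAG-3 libraries, so the ExT number and LAG-3 blockade cannot be told apart for this gene. With the ExT number as a covariate the log2 fold change turned to 0.16, a value that rests on the 3 libraries numbered ExT18083.

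The genes whose levels followed Dusp2 most closely over the 11 libraries, after removing group means, were Cebpzos (r = 0.918), Gm10154 (r = 0.90) and Timm10b (r = 0.87). Without library 10 these correlations were 0.853, 0.814 and 0.723. Timm10b encodes a protein of the mitochondrial import machinery. All such values share the same 11 libraries and their depth, and they are descriptions.

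Dusp4 (chr8:34807297-34819894, plus strand) encodes a nuclear phosphatase of ERK and JNK that is induced by T cell receptor signals. In untreated libraries 1 to 5 it measured 472, 471, 481, 476 and 465 CPM, which is nearly the same level in each mouse. The anti-LAG-3 libraries spread more widely, with a lowest value of 372 CPM (library 9), a median of 457 CPM and a highest value of 549.6 CPM (library 11). The SD of log2 CPM was 0.017 in the untreated and 0.20 in the anti-LAG-3 libraries, where counting error alone would give about 0.092 and 0.090, so the untreated values lay closer together than counting error alone would place them. This contrast was seen in the values and has no test. The means were 473 ± 5.76 CPM (SD, n = 5) against 461 ± 64.4 CPM (SD, n = 6). The log2 fold change of -0.05 had a standard error of 0.088 and an interval from -0.23 to 0.13 (edgeR quasi-likelihood, adjusted p = 0.999), which leaves changes between 0.851-fold and 1.09-fold. Its closest companions between libraries were Wipf1, which encodes a regulator of the actin cytoskeleton (r = 0.916), Gm49356 (r = 0.884) and Tgoln1 (r = 0.881).

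**Figure D2:**
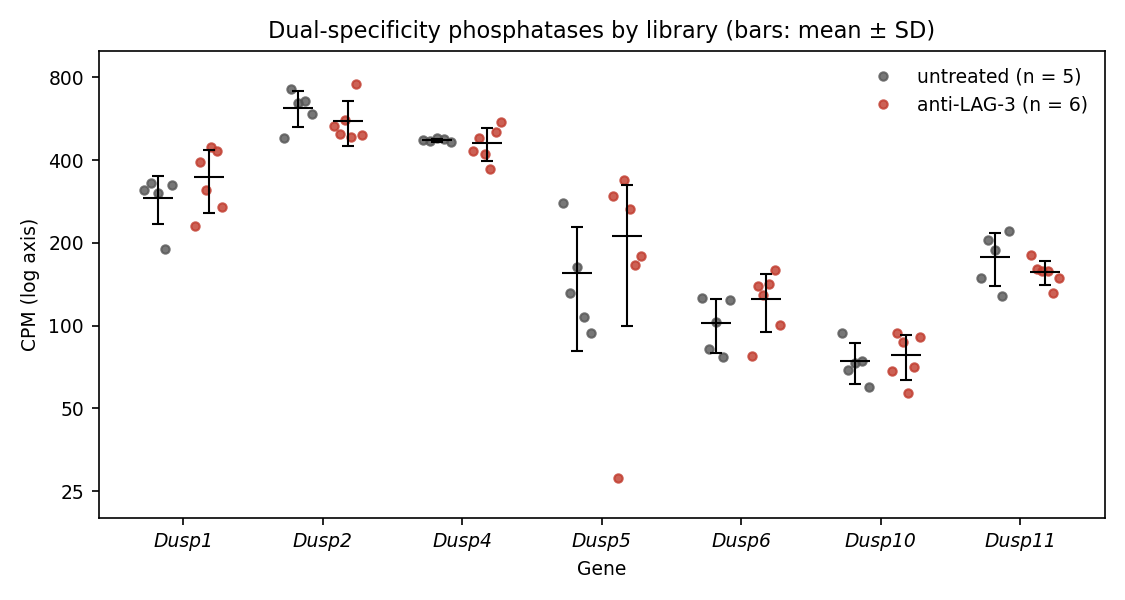
Level of each tested phosphatase in CPM (log axis) in every untreated (grey, n = 5) and anti-LAG-3 (red, n = 6) library, with the mean and SD of each group as bars. The untreated Dusp4 values lie between 465 and 481 CPM, and the Dusp5 values run from 28.0 to 339.8 CPM.

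Dusp5 encodes a nuclear phosphatase specific for ERK, and itself a transcriptional target of ERK. It had the widest spread of the 7 tested phosphatases. In untreated libraries 1 to 5 it measured 278, 132, 164, 108 and 93.8 CPM. In anti-LAG-3 libraries 6 to 11 it measured 297, 28.0, 339.8, 266, 166 and 179 CPM. The highest library was 12.1 times the lowest, or 3.62 times without anti-LAG-3 library 7, beside 1.48 to 2.35 times for the other 6. Lower-level symbols of the family that were tested outside this set spread by 3.31 (Dusp14), 3.42 (Dusp19) and 4.72 times (Dusp16), the last 2 with libraries of only 3 counts. The lowest value belonged to anti-LAG-3 library 7, which is the deepest library, with 51 Dusp5 counts and a 95% counting interval of 20.9 to 36.8 CPM. The means were 155 ± 73.9 CPM (SD, n = 5) against 213 ± 113 CPM (SD, n = 6), and the log2 fold change of 0.30 had a standard error of 0.35 and an interval from -0.42 to 1.02 (edgeR quasi-likelihood, unadjusted p = 0.397, adjusted p = 0.999). Single libraries moved it from 0.12 (without anti-LAG-3 library 6) and 0.13 (without anti-LAG-3 library 8) to 0.61 (without anti-LAG-3 library 7) and 0.68 (without untreated library 1), and among the 6 libraries with barcode 9 it was -0.007.

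The SD of Dusp5 over the 11 libraries was 0.99 on the log2 CPM scale, where counting error alone would give 0.14 and the median gene had 0.30. By this SD it ranked 9 of 6949 genes, and by the fitted biological coefficient of variation, 0.378, it ranked 4. The other 8 genes with an SD at least as large had mean levels of 17.1 to 24.9 CPM, and among the 1783 genes with a mean of 100 CPM or more Dusp5 ranked 1. Much of this rested on anti-LAG-3 library 7, without which the SD of Dusp5 was 0.63, with rank 257 of the 6949 genes and rank 5 of the 1783. Spread falls with level, so the other phosphatases are best placed among these 1783 genes, whose median SD was 0.18. There Dusp1 (SD 0.37) ranked 57, Dusp6 (0.36) ranked 64, Dusp11 (0.24) ranked 350 and Dusp2 (0.24) ranked 390, all above that median, while Dusp4 (0.15) ranked 1224, below it. Dusp10 had a mean level under 100 CPM, with an SD of 0.24.

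**Figure D3:**
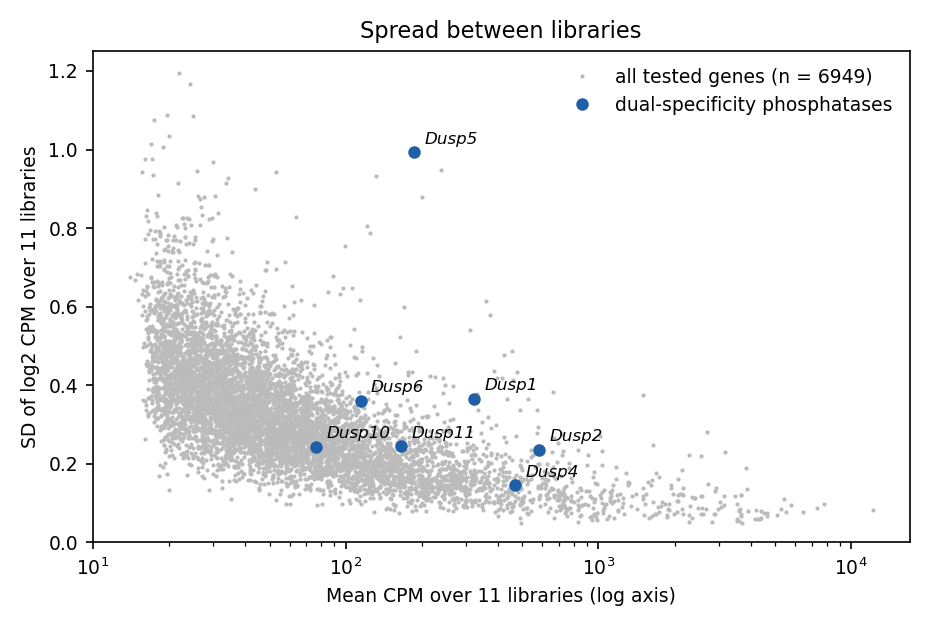
SD of log2 CPM over 11 libraries against mean CPM (log axis) for all 6949 tested genes (grey) and the 7 tested phosphatases (blue). Dusp5, at an SD of 0.99 (0.63 without anti-LAG-3 library 7), stands above the genes of similar mean level, and Dusp4, at 0.15, lies among the bulk of the genes of its level.

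Libraries that share an ExT number had close Dusp5 levels. Untreated libraries 4 and 5 (number ExT18082) had 108 and 93.8 CPM, and untreated libraries 2 and 3 and anti-LAG-3 library 10 (number ExT18083) had 132, 164 and 166 CPM. On the log2 scale the range was 0.19 within ExT18082 and 0.32 within ExT18083, against 3.48 over all 11 libraries and 1.83 without anti-LAG-3 library 7. The wider of the ranges within a number was 0.093 of the whole range for Dusp5, a ratio that 7 of 6949 genes had or went below, and 0.177 without library 7, where 84 genes (1.21%) did. Dusp4 was close in the same way, with ranges of 0.034 and 0.11 within the numbers and a ratio of 0.189 to its whole range of 0.56, a ratio that 125 genes (1.80%) had or went below, so the closeness was not particular to Dusp5. Of the 5 libraries with a shared number 4 are untreated, the group in which Dusp4 varied little. The other tested phosphatases were less close, with ratios of 0.355 for Dusp2, 0.422 for Dusp10, 0.628 for Dusp1, 0.905 for Dusp6 and 1.0 for Dusp11. The correlation of centred profiles over all 6949 genes was -0.179 to -0.097 for the 4 pairs of libraries with the same number. For the other 51 pairs it was -0.207 to 0.051. Genes of low count weigh as much as others in this measure, so it cannot decide whether whole profiles paired. The closeness of Dusp5 by ExT number too was noticed in the values, and the part of library preparation in it was not tested.

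**Figure D4:**
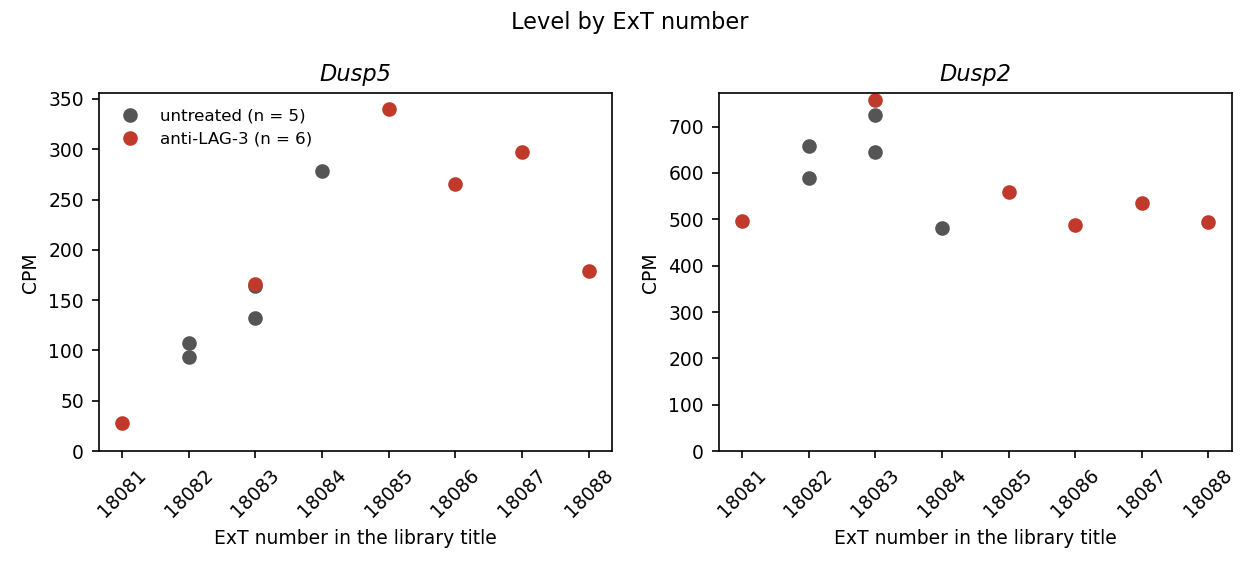
CPM of Dusp5 (left) and Dusp2 (right) by the ExT number in the library title, for untreated (grey, n = 5) and anti-LAG-3 (red, n = 6) libraries, 1 point per library. Libraries numbered ExT18082 and ExT18083 lie close together for Dusp5 (93.8 to 166 CPM) and above all others for Dusp2 (589 to 757 CPM).

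Dusp5 did not vary alone. After removing group means, 145 genes had a correlation of at least 0.7 with it over the 11 libraries and 15 had one of -0.7 or below. The closest, chosen after the values had been seen, were Rab10 (r = 0.989), which encodes a small GTPase of membrane transport, Gnas (r = 0.965), which encodes the stimulatory G protein subunit, Ybx1 (r = 0.964), which encodes an RNA-binding protein, and Tcf3 (r = 0.961), which encodes the E2A transcription factors. Without library 7 their correlations were 0.965, 0.908, 0.915 and 0.875. Of the 145 genes, 129 (89.0%) had their lowest level in anti-LAG-3 library 7, beside 5.24% of all tested genes. This follows in part from choosing them for their likeness to Dusp5. The median GC content over the first 300 bases of the longest transcript was 71.0% for the 143 of them with a transcript in GENCODE M21 and 59.0% for 6829 tested genes, and Dusp5 itself had 74.3%. Over the last 300 bases the medians were 42.3% and 43.0%. Both the genes and their GC content depended on library 7. Without it, 97 genes had a correlation of at least 0.7 with Dusp5, of which 37 were among the 145, and the median GC content over the first 300 bases was 62.7% for the 94 with a transcript. For the other 6 tested phosphatases, the 49 to 131 genes with a correlation of at least 0.7 had median GC contents of 56.0% to 60.0% over the first 300 bases. Dusp2, whose own first 300 bases have 75.0% GC, did not share the pattern, with 497 CPM in library 7. The part of GC content in the Dusp5 levels was not tested. In addition, 20.5% of the distinct 50-base stretches of the Dusp5 transcripts also occur in an antisense gene, AC137853.2, which overlaps the start of Dusp5 on the other strand (GRCm38 chr19:53528609-53529655, with Dusp5 at chr19:53529109-53542431). Whether strand was used in counting is not stated, so reads of this stretch could belong to either gene. The deposited counts hold no entry for AC137853.2, so its own reads cannot be seen.

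Dusp6 (chr10:99263231-99267489, plus strand) and Dusp7 (chr9:106368632-106375724, plus strand) encode the cytoplasmic phosphatases of ERK. Dusp6 measured 126, 82.4, 103, 76.8 and 124 CPM in untreated libraries 1 to 5. In the anti-LAG-3 libraries its lowest value was 77.8 CPM (library 6), its median 134 CPM and its highest 159 CPM (library 10). The anti-LAG-3 values reached higher, with 5 of 6 above 100 CPM, but untreated libraries 1, 3 and 5 lay there as well. The means were 103 ± 22.9 CPM (SD, n = 5) against 125 ± 29.8 CPM (SD, n = 6), and the log2 fold change was 0.21 with a standard error of 0.16 and an interval from -0.13 to 0.54 (edgeR quasi-likelihood, unadjusted p = 0.216, adjusted p = 0.999). Within the libraries with barcode 9 it was 0.03, and single libraries moved it from 0.13 (without anti-LAG-3 library 7 or untreated library 4) to 0.33 (without anti-LAG-3 library 6). Dusp7 had 15 counts in all libraries together and no more than 3 in any, at most 3.75 CPM, so a difference between the groups was not detectable at this depth.

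Dusp1 and Dusp6 tended to rise and fall together between mice, though the call depended on the setting. Of the 21 pairs among the 7 tested phosphatases, theirs was the only pair called, with Pearson's r = 0.839 over the 11 libraries (permutation test with 100000 resamples, two-sided, p = 0.00104, adjusted p = 0.0218 over the 21 pairs). Spearman's rho was 0.827 (permutation p = 0.00284, adjusted p = 0.0596). Both genes were low in untreated library 4 and anti-LAG-3 library 6 and high in anti-LAG-3 libraries 7, 9 and 10. The r was 0.817 after removing group means (permutation adjusted p = 0.0607) and 0.921 in the 6 libraries with barcode 9 (exact permutation test, p = 0.00278, adjusted p = 0.0583). Spearman's rho was 0.70 after removing group means (permutation adjusted p = 0.444) and 0.943 within barcode 9 (exact permutation test, adjusted p = 0.175). Without the 2 libraries farthest from the median of Dusp1, untreated 4 and anti-LAG-3 9, r was 0.779 (permutation p = 0.0124, adjusted p = 0.261), so the call rests in part on them. Leaving out a single library gave r from 0.791 to 0.942, and the call was lost without untreated library 4 (permutation adjusted p = 0.142) and without anti-LAG-3 libraries 6 (0.0798), 7 (0.0525) or 10 (0.0647). Over all 11 libraries the other 20 pairs had r between -0.41 (Dusp10 and Dusp11) and 0.49 (Dusp4 and Dusp10), with none called. Within barcode 9, Dusp2 and Dusp11 had r = 0.801 (exact permutation test, p = 0.0458, adjusted p = 0.481), beside 0.052 over all 11 libraries.

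**Figure D5:**
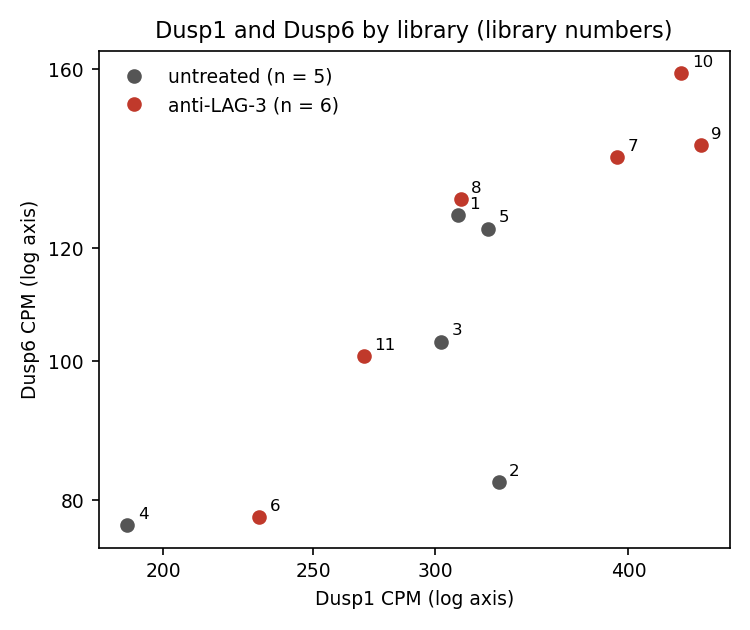
Dusp6 against Dusp1 in CPM (both axes logarithmic), 1 point per library with its number, untreated in grey (n = 5) and anti-LAG-3 in red (n = 6). The points rise together from untreated library 4 (189.5 and 76.8 CPM) to anti-LAG-3 libraries 9 and 10, and untreated library 2 lies lowest relative to the rest.

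Immediate early and heat shock genes, which tissue digestion can raise, were high in some of the same libraries. Summed over 10 such genes (Fos, Fosb, Jun, Junb, Egr1, Ier2, Hspa1a, Hspa1b, Atf3 and Zfp36), the level was 3115 to 3408 CPM in the untreated and 3065 to 3977 CPM in the anti-LAG-3 libraries. Its highest values, 3977, 3952 and 3766 CPM, belonged to anti-LAG-3 libraries 10, 9 and 7, which also had the 3 highest levels of Dusp1 and of Dusp6. Its lowest value belonged to library 6, where Dusp1 and Dusp6 were the lowest of the anti-LAG-3 group, and untreated library 4 had 3158 CPM. Untreated library 2 did not follow for Dusp1, with a sum of 3115 CPM, the lowest of the untreated group, beside the highest Dusp1 level of that group (329.6 CPM), while its Dusp6 level was low (82.4 CPM). Summed myeloid markers were also highest in libraries 10 (159 CPM) and 7 (85.1 CPM), but 24.8 CPM in library 9. Fos, Fosb, Jun, Junb, Egr1 and Ier2 also belong to the immediate early and ERK feedback genes described below. The sum is therefore not a measure of handling alone. The part of sample handling, of ERK signals and of myeloid RNA in the levels of Dusp1 and Dusp6 was not tested.

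Dusp10 (chr1:184013302-184075636, plus strand) encodes a phosphatase that restrains JNK and p38 and limits T cell activation. It measured 94.4, 69.2, 73.0, 74.3 and 60.0 CPM in untreated libraries 1 to 5, and from 57.1 CPM (library 9) through a median of 79.2 CPM to 93.9 CPM (library 7) in the anti-LAG-3 libraries. The groups covered nearly the same range, with means of 74.2 ± 12.6 CPM (SD, n = 5) against 78.1 ± 14.7 CPM (SD, n = 6). The SD of 0.24 (log2) over all libraries was close to the 0.23 of counting error. The log2 fold change of 0.04 had a standard error of 0.16 and an interval from -0.29 to 0.36, and its sign changed with the setting.

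Of the atypical phosphatases, only Dusp11 (chr6:85942268-85961667, minus strand), which encodes an enzyme that removes phosphate from the start of RNA, passed the filter. It measured 149, 204, 188, 128 and 221 CPM in untreated libraries 1 to 5. The anti-LAG-3 libraries lay closer together, from 132 CPM (library 10) through a median of 158 CPM to 181 CPM (library 6), which is within the untreated range. The means were 178 ± 38.7 CPM (SD, n = 5) against 156 ± 16.2 CPM (SD, n = 6), and the log2 fold change of -0.15 had a standard error of 0.12 and an interval from -0.41 to 0.10 (edgeR quasi-likelihood, unadjusted p = 0.233, adjusted p = 0.999). It was -0.07 without untreated library 5, -0.23 without untreated library 4 and -0.06 with the primer barcode as a covariate.

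Dusp12 (chr1:170873498-170885540, minus strand) encodes an atypical phosphatase with a zinc-binding domain. It had 114 counts in all. The counts were 5, 2, 10, 1 and 8 in untreated libraries 1 to 5 and 23, 36, 0, 17, 3 and 9 in anti-LAG-3 libraries 6 to 11. The 0 in library 8 allows up to 3 counts there, or 7.08 CPM. In the libraries with barcode 9, which are the deep ones, the values were 4.11, 8.90 and 15.01 CPM in untreated libraries 1, 3 and 5 and 21.8, 19.8 and 21.1 CPM in anti-LAG-3 libraries 6, 7 and 9. All 3 anti-LAG-3 values lay above the 3 untreated values, a separation that 916 of the 9071 genes tested in these libraries (10.1%) had in either direction. Without the filter, the log2 fold change was 1.26 with a standard error of 0.37 and an interval from 0.53 to 1.99, and it did not pass adjustment over 24024 genes (edgeR quasi-likelihood, unadjusted p = 0.000761, adjusted p = 0.669). That fit called 3 genes (0.0125%) and had 1095 (4.56%) with an unadjusted p under 0.05. It also gave smaller standard errors for some of the filtered genes, 0.12 in place of 0.35 for Dusp5 (interval from 0.08 to 0.54) and 0.10 in place of 0.15 for Dusp1 (interval from 0.05 to 0.45), so that these 2 intervals no longer included 0 (edgeR quasi-likelihood, adjusted p = 0.722 for both), and the standard error of Dusp12 comes from this same fit. Among the libraries with barcode 9, where Dusp12 passed the filter, the log2 fold change was 1.33 (adjusted p = 0.986 over 9071 genes). A further uncertainty is that 43.4% of the 50-base stretches of its transcripts occur in the antisense genes Gm26620 and Gm9929, which had 1 and 14 counts in the table.

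Dusp22 (chr13:30659999-30711231, plus strand) encodes a phosphatase that inactivates Lck, the kinase that starts T cell receptor signaling. It had 79 counts, with 11, 1, 10, 6 and 5 in untreated libraries 1 to 5 and 17, 20, 1, 4, 1 and 3 in anti-LAG-3 libraries 6 to 11. The means were 9.19 ± 4.27 CPM (SD, n = 5) against 7.57 ± 5.23 CPM (SD, n = 6), a difference smaller than the spread between libraries. The log2 fold change without the filter was -0.0054 with an interval from -0.99 to 0.98.

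The kinase cascades that these phosphatases act on were described by lists of genes. Again there was no call in edgeR's quasi-likelihood test (adjusted p = 0.999 for each gene named). Over all 6949 genes, 3553 had a positive and 3396 a negative log2 fold change, with a median of 0.0045. Of 24 genes of the ERK cascade 16 were tested, 12 with a positive and 4 with a negative log2 fold change, with a median of 0.06. The smallest unadjusted p values belonged to Mknk2, a kinase downstream of ERK (-0.34, SE 0.24), Rasgrp1, which activates Ras in T cells (0.17, SE 0.15), and Rps6ka1, a kinase downstream of ERK (0.19, SE 0.18). Of 22 genes of the JNK and p38 cascades 11 were tested, 4 positive and 7 negative, with a median of -0.08. Map3k1, an upstream kinase of JNK, had 43.7 ± 14.0 CPM in untreated (SD, n = 5) and 27.2 ± 13.0 CPM in anti-LAG-3 libraries (SD, n = 6), a log2 fold change of -0.68 (SE 0.26) that missed the threshold. Mapkapk3 (-0.27, SE 0.17) and Mapk14, the gene for p38 alpha (0.29, SE 0.21), followed.

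Among 22 immediate early and ERK feedback genes, 16 were tested, of which 12 had a positive and 4 a negative log2 fold change. Their median was 0.15, beside 0.0045 over all genes. Egr1, an early transcriptional target of ERK, had 41.2 ± 13.8 CPM in untreated (SD, n = 5) and 63.3 ± 17.5 CPM in anti-LAG-3 libraries (SD, n = 6), a log2 fold change of 0.57 (SE 0.21). Myc, which drives growth and metabolism, had 42.9 ± 11.0 CPM and 60.8 ± 12.5 CPM in the same groups, a log2 fold change of 0.51 (SE 0.19). Ier2, another immediate early gene, followed with 0.18 (SE 0.094). Egr1 and Ier2, and also Fos, Fosb, Jun and Junb of this list, are among the 10 genes that tissue digestion can raise.

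Of 15 further phosphatase symbols, 6 were tested, 3 with a positive and 3 with a negative log2 fold change and a median of -0.08. Ssh2 (-0.17) and Ssh1 (-0.32), which encode slingshot phosphatases of cofilin, and Dusp14 (0.20, SE 0.19) had the smallest unadjusted p values. Dusp16 and Dusp19 were tested as well, with 3 to 38 and 3 to 53 counts per library, whereas Dusp3, Dusp8, Dusp9, Dusp18, Dusp23 and Dusp28 had at most 16 counts in any library and Dusp15 had 0 in all 11. Of 10 other phosphatases of MAP kinases or their activators 6 were tested, 2 positive and 4 negative with a median of -0.10, led by Ppm1a (-0.39, SE 0.29), Ptpn22 (0.14, SE 0.11) and Ppm1d (-0.28, SE 0.29).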

How the data were processed

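Libraries of 5 untreated and 6 anti-LAG-3 mice were compared. The authors trimmed reads with cutadapt, mapped them to mouse reference RNA of GRCm38 with Bowtie2 (the submitters' processing notes name cutadapt 4.1 and Bowtie2 2.4.5) and deposited raw read counts per gene symbol, 1 column per library, each matched to its sample by title. How reads matching several genes or the antisense strand were counted is not given in the sources used here.

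Counts were filtered with filterByExpr (17.7 CPM in at least 5 libraries, at least 15 counts in all), normalized by TMM and tested with the quasi-likelihood test of edgeR 4.0.16 in R 4.3.3, with Benjamini-Hochberg adjustment over 6949 genes. The study's likelihood ratio test and DESeq2 1.42.0 were alternatives. Correlations used log2 CPM with a prior count of 2. Standard errors were obtained from each log2 fold change and its F statistic.

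The phosphatases and the gene lists were chosen with earlier results of these data known. Named genes are the 10 phosphatases, up to 3 genes of each list with the smallest unadjusted p, sorting markers, and the 3 genes most correlated with Dusp2 and with Dusp4, the next most abundant by CPM. The genes closest to Dusp5 were named after their values were seen, and the 10 genes that digestion can raise are named as a list. Leaving out anti-LAG-3 library 7 from the spread and likeness of Dusp5 was chosen after seeing the data. Gene positions and transcripts come from GENCODE M21 (GRCm38).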

Additional observations from a re-analysis of the deposited data

Results flagged for a closer look

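For 3 phosphatases, an extreme library stood farther from its neighbour in its group than Dixon's criterion at 95% allows (14 sets of log2 CPM values, from 7 phosphatases in 2 groups). Chance flags about 1 in 20 such sets, and the value of Dusp2 cannot be read against this share because it was known when the genes were picked. Dusp1 was lowest in untreated library 4, at a log2 CPM of 7.59 (189.5 CPM, with the other untreated libraries between 303 and 329.6 CPM). Dusp2 was highest in anti-LAG-3 library 10, at a log2 CPM of 9.57 (757 CPM, with the other anti-LAG-3 libraries between 487 and 559 CPM). Dusp5 was lowest in anti-LAG-3 library 7, at a log2 CPM of 4.94 (28.0 CPM, with the others between 166 and 339.8 CPM). The causes were not tested.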

How the results depend on the processing

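No phosphatase was called under any of the alternatives run (test, normalization, filter, primer barcode, ExT number, each library left out), and 131 of 140 values of single phosphatases under these alternatives kept their direction and their side of the threshold. The other 9 changed sign, all without a call. With the ExT number as a covariate, an alternative added after seeing the data, the log2 fold change was 0.16 for Dusp2, 0.089 for Dusp4, -0.017 for Dusp10, 0.47 for Dusp1 (0.24 as reported), 0.71 for Dusp6 (0.21) and -0.55 for Dusp11 (-0.15), and 16 genes (0.23%) passed the threshold, none of them among the 7. That fit leaves each library with a number of its own without weight in the contrast, and both libraries numbered ExT18082 are untreated. Its values therefore rest on anti-LAG-3 library 10 against untreated libraries 2 and 3. Within primer barcode 9 the log2 fold change was -0.007 for Dusp5 and -0.052 for Dusp10. Leaving out single libraries gave -0.11 to 0.0041 for Dusp4 and -0.078 to 0.17 for Dusp10. Over all genes, 3 passed without the filter and 0 to 2 with a library left out (2 without anti-LAG-3 library 7). The number of correlated pairs fell from 1 to 0 after removing group means, within primer barcode 9 and without the 2 farthest libraries, and was 0 to 1 with a library left out, the latter also an alternative added after seeing the data. The causes were not tested. No paired analysis was possible because the groups share no replicate number. Depth limits Dusp7, Dusp12 and Dusp22, each with a library at or below the 3 counts that a count of 0 allows.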
